A study of Mus musculus with 4 samples.

Results

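Promoter regions that carried a called H3K27ac peak in a single chondrocyte population were described, with the limb and the trunk set side by side. They were chosen by the peak calls themselves: a region was a member when it overlapped the promoter window of a protein-coding gene (2 kb before to 500 bp after a start site) and when peak intervals of only 1 of the 4 lists overlapped it, either limb EGFP+ or trunk EGFP+. There were 1939 such regions among 19907 promoter regions and 62558 regions of the series. Of these, 1308 were held by limb EGFP+ cells alone, which is 6.57% of promoter regions, and 631 by trunk EGFP+ cells alone, which is 3.17%. They are called limb-only and trunk-only regions here. Since peak calls selected the regions, the calls are given as a description without a test.

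H3K27ac ChIP-seq had been made from E14.5 mouse fetuses carrying Col2a1-EGFP, a reporter cassette of a minimal β-globin promoter and EGFP placed upstream of the collagen II gene. The fetuses were derived from 1 male embryonic stem cell line (G4) by tetraploid aggregation, and all 4 populations share that genotype. Cells of microdissected limbs and of trunks freed of internal organs were pooled and sorted into EGFP+ cells, enriched in chondrocytes, and EGFP− cells, which hold every other cell type of the tissue. Each population had 1 library, so no value carries a replicate error and limb and trunk were compared without a test. The peak names of the limb and the trunk lists carry different lane labels, and a difference by tissue and one by lane cannot be told apart. The read lengths and sonicators that the study names were not assigned to libraries, and the trunk EGFP− peak names carry a replicate 2 label against replicate 1 in the sample label. The lists held between 30716 and 40899 intervals after summits of 1 interval were joined, with a median of 26 to 29 reads at a summit. In bulk chromatin, fewer marked cells and less mark per cell cannot be told apart.

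H3K27ac is an acetylation of histone H3 laid down by the acetyltransferases p300 and CBP, and at start sites it accompanies transcription. Promoters of broadly used genes mostly lie in CpG islands, stretches of GC-rich DNA in which the dinucleotide CG has escaped its usual loss, whereas promoters of tissue-specific genes more often lack them. Chondrocytes of the limb arise from lateral plate mesoderm and those of the vertebral column and proximal ribs from the sclerotome of the somites. Both make the same collagen II and aggrecan matrix under Sox9, Sox5 and Sox6, but they carry transcription factors that record where they came from.

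The DNA under the strongest members with no peak of another list at any promoter of their gene is printed below, 3 limb-only and 3 trunk-only regions, followed by 2 of each group at limb patterning and axial skeleton factors that were picked after their values were seen. Each run is the peak summit with 100 bases on each side from the reference genome (GRCm39), read 5′ to 3′ along the gene's strand, with every CG in capitals so that the CpG content described below can be seen. Windows over annotated untranslated exons were passed over. The limb-only runs lie at chr5:9150284-9150484 (+ strand, Tmem243, upstream of the start site), chr2:152596208-152596408 (+, Cox4i2, upstream), chr14:15364042-15364242 (+, Gm3696, upstream), chr2:33531265-33531465 (−, Lmx1b, upstream) and chr2:74527791-74527991 (+, Hoxd9, upstream). The trunk-only runs lie at chr8:36054609-36054809 (+, Mfhas1, upstream), chr10:102864053-102864253 (−, Alx1, summit intronic, 490 bp inside the gene), chr8:115144846-115145046 (+, Clec3a, summit intronic, 120 bp inside), chr8:121810105-121810305 (+, Foxf1, upstream) and chr2:147207326-147207526 (+, Pax1, summit intronic, 516 bp inside). These labels give the place of the summit, and a run can reach into a neighbouring exon.
Tmem243 (limb-only): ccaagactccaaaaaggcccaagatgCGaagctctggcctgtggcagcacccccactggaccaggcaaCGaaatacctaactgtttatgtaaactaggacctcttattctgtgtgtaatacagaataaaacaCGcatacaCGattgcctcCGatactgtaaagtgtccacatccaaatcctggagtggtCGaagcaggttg
Cox4i2 (limb-only): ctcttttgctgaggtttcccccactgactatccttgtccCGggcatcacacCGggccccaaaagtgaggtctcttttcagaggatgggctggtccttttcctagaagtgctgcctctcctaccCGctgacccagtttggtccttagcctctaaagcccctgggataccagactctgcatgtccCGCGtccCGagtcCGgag
Gm3696 (limb-only): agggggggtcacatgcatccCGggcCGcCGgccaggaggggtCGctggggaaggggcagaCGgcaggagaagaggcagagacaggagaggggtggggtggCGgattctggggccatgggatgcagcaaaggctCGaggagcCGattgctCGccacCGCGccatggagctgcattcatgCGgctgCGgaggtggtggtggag
Lmx1b (limb-only): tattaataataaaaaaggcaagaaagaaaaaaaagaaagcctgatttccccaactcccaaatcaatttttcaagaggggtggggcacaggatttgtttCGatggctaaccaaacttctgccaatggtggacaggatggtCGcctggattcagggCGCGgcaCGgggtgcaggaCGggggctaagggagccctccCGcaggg
Hoxd9 (limb-only): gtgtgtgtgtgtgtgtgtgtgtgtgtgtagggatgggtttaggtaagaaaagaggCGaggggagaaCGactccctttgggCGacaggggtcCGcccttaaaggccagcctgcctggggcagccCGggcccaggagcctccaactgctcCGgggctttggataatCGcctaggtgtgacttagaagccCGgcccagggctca
Mfhas1 (trunk-only): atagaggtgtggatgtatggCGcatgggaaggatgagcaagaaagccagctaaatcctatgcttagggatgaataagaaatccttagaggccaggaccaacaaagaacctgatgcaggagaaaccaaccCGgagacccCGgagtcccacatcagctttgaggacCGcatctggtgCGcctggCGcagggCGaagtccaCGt
Alx1 (trunk-only): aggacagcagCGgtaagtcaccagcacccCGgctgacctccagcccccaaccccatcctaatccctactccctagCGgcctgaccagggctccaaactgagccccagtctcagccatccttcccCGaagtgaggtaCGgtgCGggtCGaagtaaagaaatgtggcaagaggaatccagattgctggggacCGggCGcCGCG
Clec3a (trunk-only): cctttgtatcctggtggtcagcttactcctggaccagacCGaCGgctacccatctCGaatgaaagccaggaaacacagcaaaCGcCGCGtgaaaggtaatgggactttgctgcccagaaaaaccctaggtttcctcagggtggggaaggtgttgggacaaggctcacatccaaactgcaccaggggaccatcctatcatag
Foxf1 (trunk-only): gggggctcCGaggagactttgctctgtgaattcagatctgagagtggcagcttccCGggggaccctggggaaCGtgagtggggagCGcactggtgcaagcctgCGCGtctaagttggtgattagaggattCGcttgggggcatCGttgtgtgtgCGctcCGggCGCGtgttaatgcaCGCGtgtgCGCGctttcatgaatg
Pax1 (trunk-only): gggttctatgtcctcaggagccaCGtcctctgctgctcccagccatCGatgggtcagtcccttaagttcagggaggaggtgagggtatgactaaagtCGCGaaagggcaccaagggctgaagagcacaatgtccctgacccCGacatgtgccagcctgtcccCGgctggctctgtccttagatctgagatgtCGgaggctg

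The 5 limb-only runs held between 6 and 13 CG and the 5 trunk-only runs between 6 and 16. Gm3696 is a predicted gene of a multicopy family, and its reads could belong to a near-identical copy.

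Members were weak, narrow peaks. The median −log10 p, the peak caller's measure of how far the summit stood above the local background of its own library, was 6.83 in limb-only regions (25th to 75th percentile 5.44 to 8.87) and 5.89 in trunk-only regions (4.83 to 7.32). Promoter regions of both EGFP+ lists and neither EGFP− list had a median of 10.7, and those of all 4 lists had 33.5. The median summit held 17 reads in limb-only and 15 reads in trunk-only regions, against 63 in regions of all 4 lists. The median fold over local background was 3.62 and 3.45, against 7.07. Median widths were 253.5 bp and 248 bp, against 847 bp in regions of all 4 lists, and reads had been extended to 200 bp before calling. Widths of regions shared between lists are those of the merged intervals, and their −log10 p, reads and fold are those of the strongest list. Members rest on their own list alone, so part of the contrast with shared regions follows from this construction. Of the limb-only regions 16.2% lay in the upper 50% of their own list by −log10 p, and of the trunk-only regions 9.51%. A missing peak in another list therefore says that no call was made at that depth, not that the mark was absent.

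**Figure D1:**
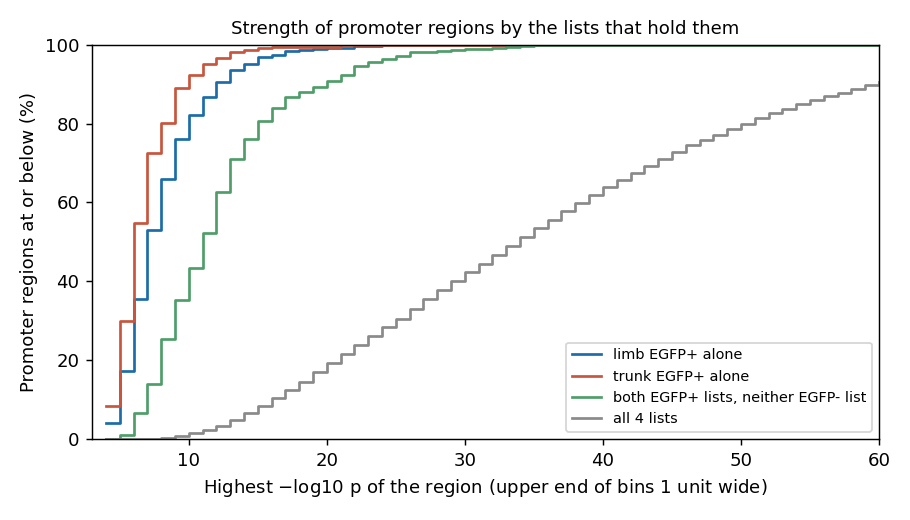
Cumulative share of promoter regions (%, vertical axis) by their highest −log10 p (horizontal axis, bins 1 unit wide, cut at 60) for regions of limb EGFP+ alone, trunk EGFP+ alone, both EGFP+ lists without an EGFP− list, and all 4 lists. The 2 one-list curves rise first, with medians of 6.83 and 5.89, and the curve of all 4 lists last, with a median of 33.5.

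The 2 EGFP− populations gave 616 (limb) and 712 (trunk) one-list promoter regions, so the limb EGFP+ number stood above those of the other lists and the trunk EGFP+ number lay near them. Set against the promoter regions that each list held, 7.61% of those of limb EGFP+ were in no other list (95% interval 7.21 to 8.01, exact binomial, counting error only), 3.98% of those of trunk EGFP+ (3.68 to 4.30), 4.01% of those of limb EGFP− and 4.58% of those of trunk EGFP−. The limb EGFP+ list was also the longest, with 40899 intervals against 36231 in trunk EGFP+. When each list was cut to its 20000 intervals of highest −log10 p, limb-only regions numbered 548 and trunk-only regions 415. The limb-only share of all members was 67.5% in the full lists and 56.9% in these shortened ones.

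At most of these promoters the other populations had a mark nearby. Members were sorted into 3 classes by whether any promoter window of their gene held a peak of another list. In 757 limb-only regions (57.9%) and 343 trunk-only regions (54.4%) the same promoter window also held a peak of another list, so the one-list region was a separate peak beside it. In 189 limb-only (14.4%) and 125 trunk-only regions (19.8%) another list marked a different start site of the gene. The remaining 362 limb-only (27.7%, 95% interval 25.3 to 30.2) and 163 trunk-only regions (25.8%, 22.5 to 29.4) were the sole marks: no other list had a peak at any promoter window of the gene. Counted in the same way, sole marks made up 26.0% of regions of limb EGFP− alone and 38.2% of those of trunk EGFP− alone. In regions of both EGFP+ lists and neither EGFP− list the share was 36.6%. A peak of another list began within 500 bp in 49.6% of limb-only and 46.3% of trunk-only regions, and within 1 kb in 60.5% and 55.9%. The neighbour was most often the opposite chondrocyte population. Trunk EGFP+ peaks lay within 500 bp of 41.3% of limb-only regions, against 32.5% for limb EGFP− and 33.0% for trunk EGFP−. Limb EGFP+ peaks lay within 500 bp of 38.0% of trunk-only regions, against 27.4% for trunk EGFP− and 24.2% for limb EGFP−. The EGFP+ lists were also longer (40899 and 36231 intervals) than the EGFP− lists (34360 in limb and 30716 in trunk), and no adjustment for length was made.

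**Figure D2:**
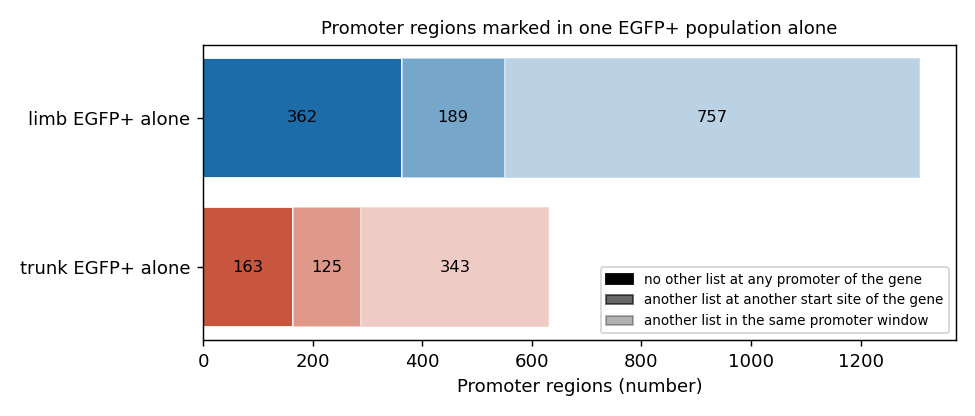
Number of promoter regions (horizontal axis) of limb EGFP+ alone and of trunk EGFP+ alone, split by shade into sole marks of their gene, regions whose gene had a peak of another list at another start site, and regions with a peak of another list in the same promoter window. The largest class is the last in both groups, 757 of 1308 limb-only and 343 of 631 trunk-only regions.

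By gene, 1228 of 21581 protein-coding genes had a limb-only region (5.69%) and 610 a trunk-only region (2.83%). Among the 12674 genes with a marked promoter in any list these shares were 9.69% and 4.81%. Genes whose promoters were marked by limb EGFP+ alone numbered 358 (1.66%), and by trunk EGFP+ alone 167 (0.774%). A total of 88 genes had a region of each kind, 7.17% of the limb-only genes and 14.4% of the trunk-only genes. A total of 126 genes had 2 or more limb-only regions and 32 had 2 or more trunk-only regions, so regions of 1 gene are not independent of each other.

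Members lay farther from start sites and were poorer in CG than promoter regions of all 4 lists, while limb-only regions had values near those of regions of both EGFP+ lists and neither EGFP− list. The summit lay within 500 bp of the nearest start site in 74.2% of limb-only (95% interval 71.7 to 76.5) and 64.5% of trunk-only regions (60.6 to 68.2), and over 500 bp upstream in 18.7% and 27.9%. In regions of both EGFP+ lists alone these shares were 73.2% and 15.0%, and in regions of all 4 lists 86.5% and 4.06%. The ratio of observed to expected CG in 200 bp on each side of the summit had a median of 0.49 in limb-only and 0.32 in trunk-only regions, against 0.49 in regions of both EGFP+ lists alone and 0.67 in regions of all 4 lists. Windows with at least 50% GC and a ratio of at least 0.6, called CpG-island-like here, made up 35.0% of limb-only (32.4 to 37.7), 18.1% of trunk-only (15.1 to 21.3), 34.2% of both-EGFP+ (31.0 to 37.6) and 58.5% of all-4-list regions. The EGFP− populations were the other way round, with 12.8% in limb EGFP− alone and 29.8% in trunk EGFP− alone. CpG-island-like members were also the stronger ones, with a median −log10 p of 7.89 against 6.37 for the other limb-only regions and 7.03 against 5.70 for the other trunk-only regions. Whether base composition in library preparation, which can differ between single libraries, contributes to these shares was not tested.

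**Figure D3:**
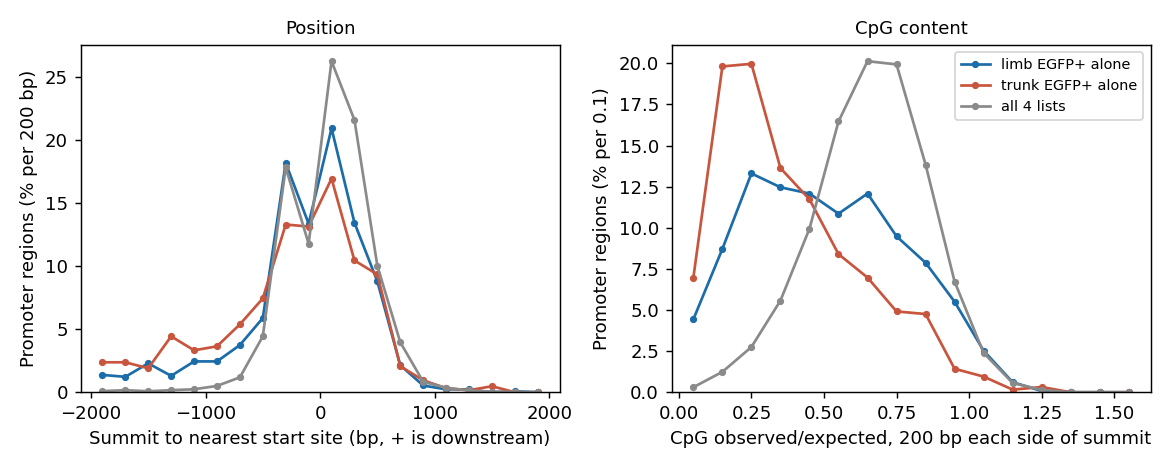
Left, share of promoter regions (% per 200 bp) by the distance from summit to nearest start site (bp, positive downstream). Right, share (% per 0.1) by the ratio of observed to expected CG within 200 bp of the summit, for limb-only, trunk-only and all-4-list regions. Both one-list groups have a longer upstream shoulder, and the trunk-only group lies lowest on the CG axis, with medians of 0.32, 0.49 and 0.67.

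Of limb-only summits 34.0% lay in introns, 28.7% in untranslated exons, 8.10% in coding sequence and 27.4% outside genes, and of trunk-only summits 39.3%, 25.4%, 4.91% and 28.5%. The nearest start site was the 5′-most of its gene in 50.3% of limb-only and 46.3% of trunk-only regions. By chromosome, the limb-only share of promoter regions ran from 4.69% on chromosome 19 to 9.12% on chromosome 18 among autosomes and was 6.96% on X.

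Short motifs were searched on both strands of the same windows, and a match is only a run of letters. The GC box GGGCGG, which SP factors bind, was in 39.5% of limb-only and 26.5% of trunk-only windows against 45.4% of all promoter windows. The ETS motif CCGGAAG, a mark of housekeeping promoters, was in 4.20% and 3.8% against 9.95%, and the CRE half-site TGACGT in 4.20% and 3.17% against 7.13%. All of these letters contain CG. ACAAAG, a SOX core, was in 21.5% and 23.9% against 21.8%. TAATTA, a homeodomain core, was in 5.43% and 4.91% against 3.75%. TGTGGT, a RUNX core, was in 19.8% and 23.1% against 17.7%, and TATAAA in 11.2% and 10.9% against 8.33%. These shares were not particular to the EGFP+ groups. In regions of limb EGFP− alone, ACAAAG was in 26.6%, TAATTA in 7.47%, TGTGGT in 26.8% and TATAAA in 15.3%. In regions of trunk EGFP− alone, they were in 25.8%, 3.79%, 20.1% and 9.83%.

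The strongest limb-only region lay at Rragb, a GTPase of the amino acid sensing arm of mTORC1 signalling, on chromosome X at chrX:151922885-151923581 in GRCm39. Its summit held 32 reads, 9.65-fold over background (−log10 p 25.3), 217 bp inside the gene, and the nearest peak of another list was 96835 bp away. Tmem243, a membrane protein gene, followed among the sole marks with 28 reads and a −log10 p of 21.6, a trunk EGFP− peak lying 803 bp off outside its windows. Eps15, an adaptor of clathrin-mediated endocytosis, had 20.7 with no other peak within 38203 bp. Slc41a2, a magnesium transporter, had 17.9, and Ocel1 16.8. The corresponding trunk-only sole marks began with C2cd4d at chr3:94269205-94270106 (−log10 p 21.1, 32 reads, 902 bp wide, nearest other peak at 8829 bp). Foxd1, a forkhead factor known from kidney stroma, had 15.9, Chst1, a keratan sulfate sulfotransferase, 13, Mfhas1 12.9 and Alx1, a homeodomain factor of skeletal mesenchyme, 12.5. These sole marks stood in 1 list with nothing called at the gene's windows in the other lists.

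The other strong members were peaks beside shared promoters. Fdft1, the squalene synthase of cholesterol synthesis, had a limb-only region of −log10 p 23.2 (51 reads), but its other promoter peaks reached 60.5 in limb EGFP+, 52.7 in limb EGFP−, 41.9 in trunk EGFP+ and 28.1 in trunk EGFP−. At Uhrf2, a RING finger protein that reads modified DNA, the limb-only region of 23 lay 118 bp from a limb EGFP− peak of 18.2, 96 bp from a trunk EGFP+ peak of 31.8 and 126 bp from a trunk EGFP− peak of 18.1. At Fosl2, an AP-1 factor with a role in bone and cartilage, the limb-only region of 22.8 was the gene's strongest limb EGFP+ peak. The strongest promoter peaks of the other lists there were 9.10 in limb EGFP−, 12.1 in trunk EGFP+ and 15.4 in trunk EGFP−. All 4 lists had a promoter peak at Fdft1, Uhrf2 and Fosl2. Tnrc6b (22.5), Sirpa (21.7) and Setbp1 (21.2) also lay beside peaks of other lists. At Bex2 (23.1) and 2310009B15Rik (21.8) trunk EGFP+ alone among the other lists had a promoter peak, of 4.34 and 5.14.

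Trunk-only regions showed the same layout at Rnf149 (20.4), Paxbp1 (16.8), Vegfa (14.5) and Ndfip1 (13.9), all of them with peaks of the other 3 lists at the gene's promoters. Vegfa encodes the main vessel growth factor, and its other peaks reached 24.1 in limb EGFP+, 19.4 in limb EGFP−, 20.4 in trunk EGFP+ and 25.7 in trunk EGFP−. Rin3, a RAB5 exchange factor, had a region of 20.4, and of the other lists limb EGFP− alone had a promoter peak (10.0). At Pcdh11x, an X-linked protocadherin, a trunk-only region of 14.7 and a limb-only region of 7.12 lay 141 bp apart, so both chondrocyte populations marked this promoter at adjoining places and neither EGFP− list did. Mest, an imprinted gene of mesoderm, had a trunk-only region of 14.8 at an alternative start site, and Eif1b one of 13.5 at an alternative start.

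Transcription factors that pattern the limb bore the mark one-sidedly. Of 30 such genes, 14 (46.7%) had a limb-only region, against the 5.69% of all genes given above, and 2 (6.67%) a trunk-only region. At 10 of the 14, limb EGFP+ was the only population with a promoter peak. Msx1, a homeodomain factor of limb mesenchyme and interdigits, was marked over its coding sequence at chr5:37981369-37981777 and had a −log10 p of 14.8 (37 reads, 4.51-fold) in limb EGFP+ and no peak in the other 3 lists, the nearest being 26531 bp away. Lmx1b, the dorsal selector gene of the limb, had 9.19, Lhx2, a LIM factor of the distal limb mesenchyme, 9.19 and 5.24 in 2 regions, Hoxd9 8.75 and Hoxd12 8.15, again with no peak in the other lists. Tbx2, a T-box repressor of the limb margins, had 6.87 and 3.61 in 2 regions. Pitx1, which gives the hindlimb its identity, had 6.04 and 4.33, Msx2 5.70, Sall4 4.06 and Prrx1 3.85. No peak of limb EGFP−, trunk EGFP+ or trunk EGFP− was called at the promoters of these 10 genes.

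The other 4 were marked in limb EGFP− cells too. Tbx4, the hindlimb T-box factor, had promoter peaks of up to 20.4 in limb EGFP+, 13.5 in limb EGFP− and 4.83 in trunk EGFP+ beside its limb-only region of 8.61. Tbx5, its forelimb counterpart, had 4.38 in limb EGFP+ and 6.07 in limb EGFP− at different start sites. Hoxd13, the factor of the digits, had 16.3 and 7.46, and Lhx9 13.5 and 9.94, in limb EGFP+ and limb EGFP− with no trunk peak. The 2 limb patterning genes with trunk-only regions were Hoxd10 (6.38) and Hoxd11 (7.0), both with peaks of other lists in the same windows. Limb EGFP+ had a promoter peak at 23 of the 30 genes, limb EGFP− at 13, trunk EGFP+ at 10 and trunk EGFP− at 11, and 4 had none.

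Factors of the axial skeleton had trunk-only regions more often than limb-only ones. Of 30 genes, 7 (23.3%) had a trunk-only region, against 2.83% of all genes, and 2 (6.67%) a limb-only region. At 5 of the 7, trunk EGFP+ was the only population with a promoter peak. Among these, Alx1, Foxf1 and Pax1 also stand in the study's list of trunk-specific chondrogenic genes, drawn from RNA of the same sorted populations. The axial count and the count for that list below are therefore not separate evidence. Foxd1 had 15.9 (33 reads, 5.33-fold) at chr13:98490760-98490977, over untranslated exon sequence, Alx1 12.5 and 6.16 in 2 regions, and Foxf1, a forkhead factor of lateral plate mesoderm, 10.4 (28 reads). Pax1, a paired box factor of the sclerotome needed for vertebral bodies, had 8.31 (43 reads, 2.61-fold), its nearest limb EGFP+ peak being 66871 bp away, and Uncx, which acts in the posterior sclerotome, had 5.89. Pax9, the partner of Pax1, had trunk-only regions of 8.33 and 5.67, with a limb EGFP+ peak of 5.49 at 166 bp from the first and none in either EGFP− list. Tcf15, the somite factor paraxis, had a weak trunk-only region of 3.42 next to peaks of 9.56 in trunk EGFP+ and 10.8 in trunk EGFP−. The limb-only regions were at Hoxc9 (5.66, alone) and Tbx6 (4.21). Trunk EGFP+ had a promoter peak at 15 of the 30 genes, limb EGFP+ at 9, trunk EGFP− at 8 and limb EGFP− at 4, and 11 had none. Some axial factors went the other way, such as Tbx18, with 15.8 in limb EGFP+, 10.2 in limb EGFP− and no trunk peak.

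**Figure D4:**
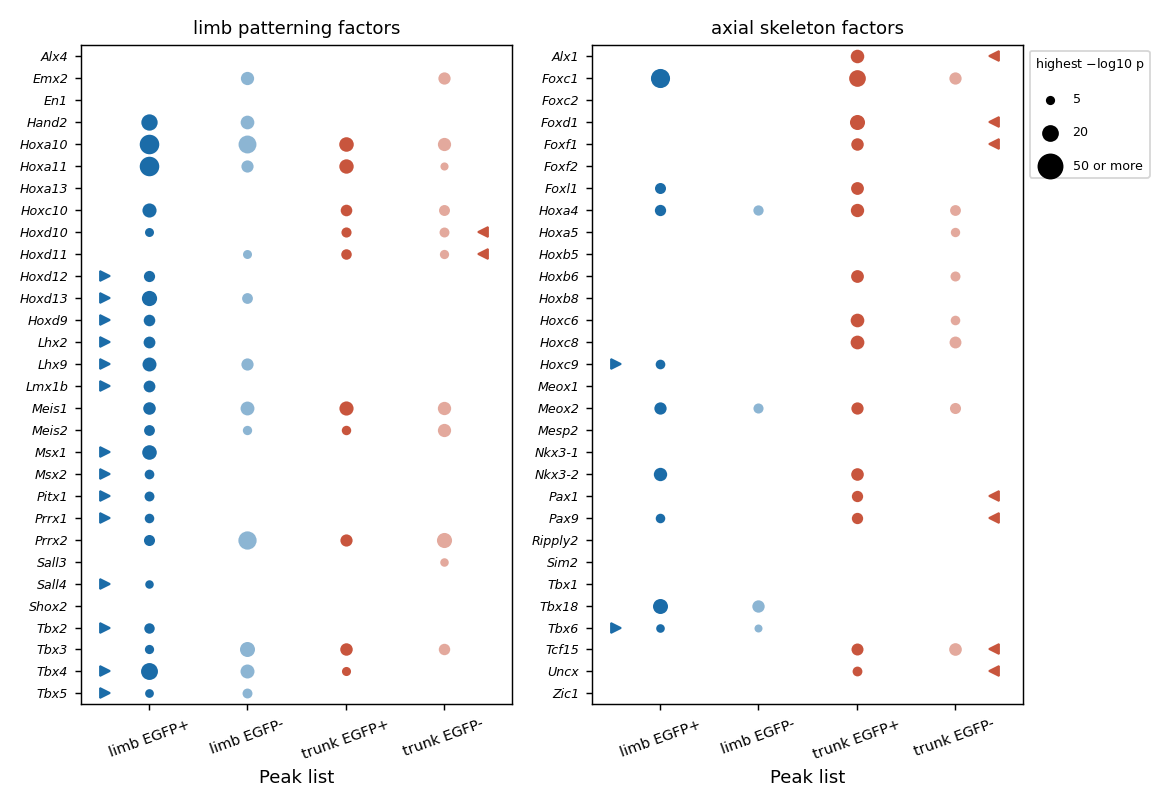
Highest −log10 p of a promoter peak (dot area, capped at 50) in each of the 4 lists (horizontal axis) for 30 limb patterning factors (left) and 30 axial skeleton factors (right), no dot meaning no peak. Triangles on the left edge mark the 14 and 2 genes with a limb-only region, and triangles on the right edge the 2 and 7 genes with a trunk-only region.

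These patterning peaks were mostly weak, and the limb count turned on that. With the 20000 strongest intervals of each list, 2 of the 30 limb patterning factors had a limb-only region, and with a −log10 q of at least 5 for the region itself 6 did. The axial count was 5 in both cases. Where no other peak was allowed within 1 kb, the counts were 11 and 6.

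Genes listed as enriched, by RNA-seq, in chondrocytes of a single tissue had one-list regions more often in that tissue than in the other. The lists were drawn by the study from RNA of the same sorted populations, so they are not independent evidence of direction. Of 49 limb-specific genes in the annotation, 15 (30.6%) had a limb-only region and 3 (6.12%) a trunk-only region. Among all genes these shares were 5.69% and 2.83%, and among genes with a marked promoter 9.69% and 4.81%. At 9 of the 15 limb EGFP+ was the only population with a promoter peak. Gdf5, the ligand that sets up limb joints, had a limb-only region of 13.9 (45 reads) at chr2:155787601-155787895, upstream of the gene, next to peaks of up to 21.7 in limb EGFP+, 15.1 in trunk EGFP+ and 4.69 in limb EGFP−. Pthlh, the signal that holds back hypertrophy, had 4.83 beside 14.2 in limb EGFP+ and 10.1 in trunk EGFP+. Psma8 (13.9, 1327 bp wide), Cdkl4 (11.7), Ctla4 (11, 9.24 and 4.98 in 3 regions), Or13p4 (8.63), Barx2 (8.34), Stac (7.38 and 5.83), Il11 (4.37), Vipr1 (4.37, a window shared with Lyzl4) and Col22a1 (4.13) were marked in limb EGFP+ alone. Prdm16 (11.5 and 6.42), Six2 (10.2), Cmklr1 (9.47) and Mip (7.01) had limb-only regions in windows that other lists marked too. The trunk-only regions were at Igf2 (6.98) and Cmklr1 (5.77), both marked in all 4 lists, and at Tafa2 (3.50), which was marked in trunk EGFP+ alone. Of the 49 genes, 28 had no promoter peak in any list.

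Of 43 trunk-specific genes, 8 (18.6%) had a trunk-only region and 3 (6.98%) a limb-only region, and 21 had no peak. At 7 of the 8 trunk EGFP+ was the only population marked: Alx1, Foxf1 and Pax1, given above, with Clec3a, a cartilage C-type lectin (11.5 and 7.59 in 2 regions), Mgst2 (6.31), Prdm6 (4.56) and Itgbl1 (4.15). Agt had a trunk-only region of 7.52 beside peaks in both EGFP+ lists. The limb-only regions were at Gramd2a (7.34) and Smpd3 (4.80), beside peaks of other lists, and at Fam89a (7.22), which was marked in limb EGFP+ alone. Among 563 genes listed as enriched in chondrocytes of both tissues, 118 (21%) had a limb-only and 55 (9.77%) a trunk-only region. These shares too stood above the 5.69% and 2.83% of all genes. Shares above those of all genes were thus not particular to the genes listed for a single tissue. The strongest were at Rragb, Tmem243, Slc41a2 and Sgms2 (16.7), a sphingomyelin synthase, in the limb, and at Tox (11), Cacna1a (10.4), Asb16 (10.1) and the glycogen phosphorylase gene Pygl (9.62), which tied with Prkg2, in the trunk. Of these 563 genes, 422 were marked in limb EGFP+, 394 in trunk EGFP+, 232 in limb EGFP− and 237 in trunk EGFP−.

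The chondrocyte markers themselves were marked in both tissues. All 20 markers had a promoter peak in limb EGFP+ and in trunk EGFP+, 8 in limb EGFP− and 6 in trunk EGFP−, as the label of the sorted populations has it. None was marked in 1 population alone, and their one-list regions were additional peaks. Limb-only regions lay at 4 of the 20 (20%), Sox6 (8.97 and 4.47), Matn3 (8.02 and 6.96), Comp (4.89) and Fgfr3 (3.69). Trunk-only regions lay at 3 (15%), Col9a1 (7.04), Hapln1 (4.92) and Acan (3.41). At Fgfr3, the receptor that restrains chondrocyte growth, the shared peaks reached 30.2 in limb EGFP+ and 18.4 in trunk EGFP+, far above the one-list region. At Acan, the aggrecan gene, the shared peaks reached 19 and 14.2.

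Signalling genes, like genes in general, had more limb-only than trunk-only regions. Of 36 FGF and hedgehog genes, 9 (25%) had a limb-only region, namely Fgfrl1 (13), Ptch1 (8.27 and 6.39), Sufu (7.91), Fgfr2 (5.77), Ihh (5.61), Fgf7 (5.20), Pthlh (4.83), Fgf10 (4.73) and Fgfr3 (3.69). A single one, Fgfr4 (4.91), had a trunk-only region. Ptch1, the hedgehog receptor and target, and Sufu, its intracellular inhibitor, were both marked elsewhere in the same windows by other lists. Only 1 of the 9 genes was marked in limb EGFP+ alone. Of 40 BMP, GDF and TGF-β genes, 5 (12.5%) had a limb-only region, among them Smad2 (14.3), Gdf5 and Smad3 (10.1 and 9.37), and 1 (2.50%) a trunk-only region, Bmp7 (8.66). Of 46 WNT genes, 5 (10.9%) had a limb-only region, with the receptor Fzd7 at 19.1 and the ligand Wnt5a at 11.1. A trunk-only region lay at 3 (6.52%), with the effector Tcf7l2 at 12.9 and Axin2 at 6.49. Limb EGFP+ alone marked 2 of the 5 limb-only genes of the BMP list and 4 of the 5 of the WNT list. No trunk-only gene of either list was marked in trunk EGFP+ alone. Among all genes the limb-only and trunk-only shares were 5.69% and 2.83%, and among genes with a marked promoter 9.69% and 4.81%.

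Shares among genes of later skeletal stages and of the matrix also stood above those of all genes (5.69% and 2.83%), in short lists. Among genes with a marked promoter the shares were 9.69% and 4.81%. The limb-only share of collagen chains (9.76%) lay near the former. Of 16 hypertrophic and osteoblast markers, 5 (31.2%) had a limb-only region, at Panx3 (7.23), Sp7 (6.99), Runx2 (6.82), Dlx6 (5.70) and Ihh (5.61), and 2 (12.5%) a trunk-only region, at Runx2 (5.59) and Sp7 (4.61). Runx2 and Sp7, the master factors of osteoblasts, thus had a region of each kind. Of 41 collagen chains, 4 (9.76%) had a limb-only region, at Col8a1 (6.40), Col8a2 (6.29), Col12a1 (5.92) and Col22a1, and 4 (9.76%) a trunk-only region, at Col9a1, Col6a3 (5.19), Col19a1 (5.14) and Col16a1 (4.39). Of 12 perichondrium and tendon markers, 3 (25%) had a limb-only region (Mkx 6.41, Kera 5.64 and Postn 5.26). A trunk-only region lay at 4 (33.3%), namely Fmod (6.65), Mkx (5.45), Foxp1 (5.24) and Scx (4.14). This trunk-only share stood above the 23.3% of axial skeleton factors. At 1 of the 4 genes trunk EGFP+ was the only population with a promoter peak.

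**Figure D5:**
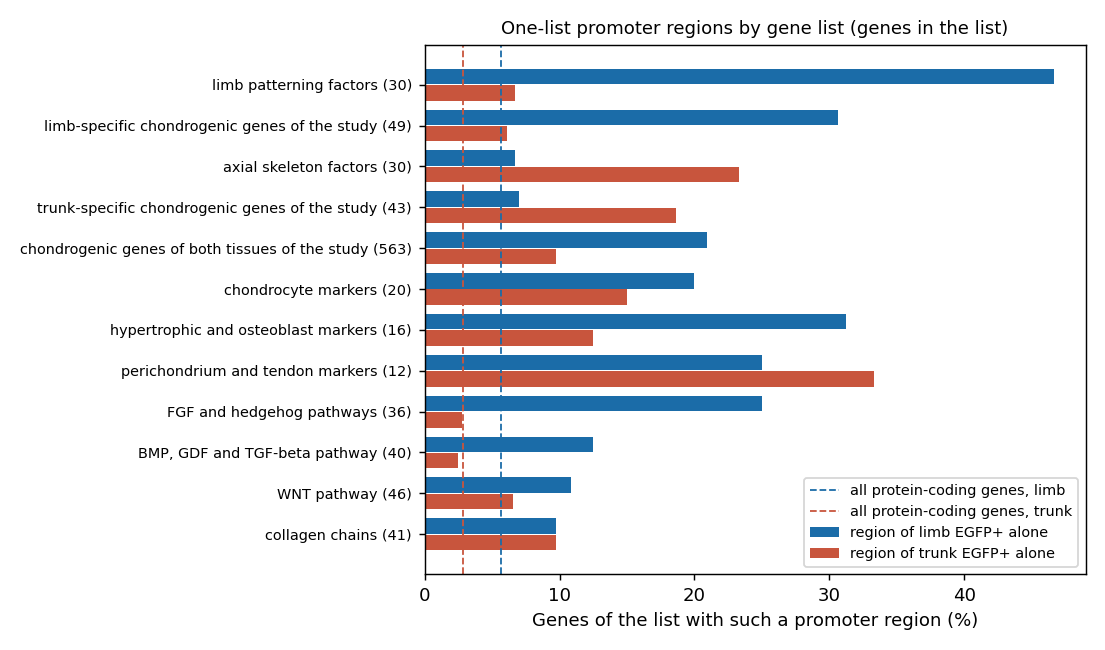
Share of the genes of each list (%, horizontal axis, number of genes in parentheses) with a limb-only and with a trunk-only promoter region. Dashed lines are the shares among all protein-coding genes, 5.69% and 2.83%. Limb patterning factors reach 46.7% for limb-only regions, and axial skeleton factors 23.3% for trunk-only regions. The highest trunk-only share, 33.3%, is that of the 12 perichondrium and tendon markers.

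Hox genes had regions of both kinds, beside the 5.69% (limb-only) and 2.83% (trunk-only) of all genes. Of 39, 5 (12.8%) had a limb-only region (Hoxd9, Hoxd12, Hoxa7, Hoxd13 and Hoxc9, between 5.66 and 8.75) and 7 (17.9%) a trunk-only region, at Hoxa3 (9.72), Hoxb7 (9.08), Hoxb3 (8.09), Hoxd11, Hoxd10, Hoxc11 (5.28) and Hoxc4 (5.00). HoxD genes made up 3 of the 5 limb-only genes, and the trunk-only genes were spread over all 4 clusters. Limb EGFP+ was the only population with a promoter peak at 3 of the 5, and trunk EGFP+ at 1 of the 7. Of the 39 genes, trunk EGFP− marked 21, trunk EGFP+ 18, limb EGFP+ 11 and limb EGFP− 9.

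Markers of other cell types were looked up among the members. Of 12 epithelial and 12 endothelial markers none had a member. Of 14 skeletal muscle markers 1 (7.14%) had a limb-only region (Myog 5.81), and of 12 blood and immune markers 1 (8.33%, Laptm5 4.67). Of 14 neural and neural crest markers 2 (14.3%) had one, Dcx (9.26) and Sox10 (7.89). Of all genes 5.69% had a limb-only region. No gene of these lists had a trunk-only region. Myog, Laptm5, Dcx and Sox10 were marked in limb EGFP+ alone, against 1.66% of all genes. Neural and neural crest markers had a promoter peak at 5 genes in limb EGFP+, 2 in limb EGFP−, 3 in trunk EGFP+ and 3 in trunk EGFP−. Sox10 also stands in the study's list of chondrogenic genes of both tissues. The part of such cells in the limb EGFP+ sort was not tested.

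Genes in constant use gave almost no members. None of 34 oxidative phosphorylation genes had one, and all 34 were marked in all 4 lists. Of 76 cytosolic ribosomal protein genes 1 did, Rps2, with a trunk-only region of 11.2 beside shared peaks.

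Of the 189 limb-only regions at genes that another list marked at a different start site, 84 (44.4%) belonged to genes whose 5′-most start site was marked in all 4 lists, and of the 125 trunk-only regions 53 (42.4%). Their median ratio of observed to expected CG was 0.33 in limb-only and 0.25 in trunk-only regions. The strongest limb-only ones, listed after the values were seen, were at Zfp423, a zinc finger partner of SMADs (15.6, 1027 bp wide), Smox (14.2), Lrrc4b (14.2), Camkk1 (13.5) and Bcat1 (12.9), and the strongest trunk-only ones at Mest, Eif1b, Cnn3 (10.4), Rtel1 (9.57) and Atat1 (9.21). At Zfp423 other promoter peaks reached 18.6 in limb EGFP+, 14.8 in limb EGFP−, 25.7 in trunk EGFP+ and 12.5 in trunk EGFP−, and the nearest peak of another list lay 8751 bp from the limb-only region.

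Distal marks around the members were counted by the list that held them. Among distal EGFP+ regions held by 1 list, limb-only ones made up 59.9% within 100 kb of limb-only promoter regions (1380 of 2302, 95% interval 57.9 to 62.0) and 58.4% within 100 kb of trunk-only promoter regions (686 of 1175, 55.5 to 61.2). Around promoter regions of all 4 lists the share was 58.7%. For both groups the intervals took in that value and overlapped. Around sole marks it was 64.0% for limb-only (60.2 to 67.7) and 59.0% for trunk-only regions (52.8 to 64.9), the interval of limb-only sole marks lying above that of regions of all 4 lists (57.6 to 59.8). Within 200 kb the sole marks had 65.2% (62.5 to 67.9) and 58.5% (54.1 to 62.7), against 59.7% (58.8 to 60.6) around regions of all 4 lists. The intervals cover counting error only, neighbouring regions of 1 locus are not independent, and no test was made.

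The edges of the selection were soft. The weakest limb-only members, at Twist2, Pou3f3 and Sema4d, had −log10 q of 1.31, 1.34 and 1.34, and the weakest trunk-only members, at Sh2d5, Igfbp2 and Myl3, had 1.30, 1.32 and 1.32, at the caller's limit. Another 31 limb-only and 9 trunk-only one-list regions ended within 50 bp outside a promoter window, with median −log10 p of 7.69 and 5.68. The 24 limb-only and 14 trunk-only members that reached less than 50 bp into a window had medians of 7.07 and 6.84.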

How the data were processed

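The authors sampled reads to an equal number per library, trimmed them with cutadapt 1.18, mapped them with Bowtie2 2.3.5.1 to GRCm39, filtered with SAMtools and called peaks per library with MACS2 2.2.7.1. No control library or q threshold is named. The deposited lists hold a score (10 times −log10 q), a fold (ratio of summit pileup to local background), −log10 p and −log10 q. The score was not used.

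Summit rows of 1 interval were joined, chromosomes 1 to 19, X and Y were kept, and intervals of the 4 lists overlapping by at least 1 bp were merged. Start sites came from 67388 protein-coding transcript starts of GENCODE M39 (21581 genes). Reads at summits were recovered from fold and −log10 p for 100% of rows. Exact binomial intervals (95%) cover counting error only. Folds of different lists were not divided. Scripts were tested on simulated data. The members and gene lists were chosen with earlier results of these data known.

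Genes named were the 10 strongest members per group, the 5 strongest sole marks, all members at limb patterning, axial, chondrocyte and tissue-specific chondrogenic genes, and up to 4 per group for other lists. Other members of small lists (Hox, FGF and hedgehog genes) and other-start-site members were named after their values were seen. Software was pandas 2.3.3 and numpy 2.4.6 for tables, scipy 1.17.1 for intervals, pysam 0.24.0 for sequence and matplotlib 3.10.9 for plots, in Python 3.11.15.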

Additional observations from a re-analysis of the deposited data

How the results depend on the processing

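No paired analysis was possible because each population has 1 library. For the same reason no library was left out in turn.

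Shares are percent of promoter regions, limb-only first. Keeping intervals with a −log10 q of 5 or more in every list gave 6.63% and 1.97%, sole marks at 30.7% and 30.3% of members, and 7 limb patterning factors with a limb-only region. With that limit on the member alone the shares were 2.77% and 0.728%, sole marks 22.7% and 19.3%, and the factors 6. With the 20000 strongest intervals per list they were 3.39% and 2.56%, 31.6% and 32.8%, and 2. With no other peak within 1 kb they were 2.60% and 1.40%, and sole marks 60.3% and 53.6%. With the 5′-most start site of each gene they were 5.44% and 2.35%, 41.4% and 45.9%, and 9 factors. Sole marks were 24.97% and 21.6% where intervals were joined only at 50% overlap, 33.0% and 31.9% with windows of 500 bp on each side, and 22.8% and 20.3% with the start sites of all transcripts (7.46% and 3.79% of promoter regions), a choice made after seeing the data. Filters leave fewer intervals and narrower windows fewer start sites, so part of this follows from the construction.

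Limb-only regions outnumbered trunk-only regions under every alternative run, with 56.9% to 79.2% of members, and the axial count lay between 5 and 7. The median ratio of observed to expected CG was lower in trunk-only than in limb-only regions in each (0.44 to 0.62 in limb-only, 0.29 to 0.52 in trunk-only regions). The limb-only share of distal one-list regions near members ran from 50.3% to 72.7% around limb-only and from 44.1% to 66.8% around trunk-only regions, and within each setting run it was higher around limb-only regions, by the most with the −log10 q limit on the member alone (60.2% against 50.2%) and by the least with joining at 50% overlap (59.2% against 58.5%). The weakest limb EGFP+ summit held 7 reads, which limits what an uncalled promoter can show.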

Other observations

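Gene families outside the lists above were counted in the same way, beside the 5.69% and 2.83% of all genes. Of the histone genes, 10 (9.90%) had a limb-only promoter region and 2 (1.98%) a trunk-only one. These were clustered genes that share windows: H2bc24 and H4c18 (−log10 p 8.95), H2ac12 and H2bc12 (7.78), H2ac13, H2bc13 and H3c10 (5.10), and H2ac11 and H2bc11 (3.83) each had 1 region in common, so the 10 genes, with H2bc14 (8.5), rest on 5 regions, and the near-identical copies make the placement of reads uncertain. Of 235 genes named Tmem, 16 (6.81%) had a limb-only and 3 (1.28%) a trunk-only region. Of 392 solute carrier genes 23 (5.87%) and 15 (3.83%) did, near the shares of all genes. C2H2 zinc finger genes named Zfp were marked in all 4 lists at 328 of 419 genes, and 12 (2.86%) had a limb-only and 6 (1.43%) a trunk-only region. Of 1138 olfactory receptor genes, 2 had a limb-only region (Or13p4 8.63 and Or51a5 4.57) and 1 a trunk-only region (Or10ab5 3.58), and 1131 had no promoter peak. Among protocadherin genes both groups had members in the clustered gamma genes, at Pcdhga7 (5.41) and Pcdhga10 (4.71) in limb EGFP+ and at Pcdhgb7 (6.24) and Pcdhga11 (4.92) in trunk EGFP+.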
